A study of Mus musculus with 8 samples.

Results

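The genes described here are 10 transcripts of the immediate early response and its control: the AP-1 genes Fos, Fosb, Jun, Junb and Jund, the zinc finger genes Egr1 and Egr2, Ier2, the orphan nuclear receptor gene Nr4a1, and Elk1. They were chosen by name, and all 10 are among the 24346 genes of the deposited table. RNA-seq was performed on induced immature oligodendrocytes (iOLs), with 4 Med23+/+ and 4 Med23-/- libraries. Oligodendrocyte precursor cells (OPCs) were taken from mouse brain about a week after birth by binding to a CD140a antibody, after endothelial cells and microglia had been depleted. They were expanded with PDGF-AA and NT-3 and sampled after 1 day in 15 nM T3 (triiodothyronine) with 10 ng/mL ciliary neurotrophic factor. Per the study's methods, the Med23-/- cells came from Med23 fl/fl mice with Cre driven by Olig1, and the cells named Med23+/+ came from control littermates that were Med23 fl/fl without Cre, so the floxed allele was present in both groups. Cre of this kind deletes in cells of the Olig1 lineage, and other cells in a culture would keep Med23.

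Immediate early genes are transcribed within minutes of a signal, without new protein synthesis. Fos and Jun proteins pair to form AP-1, which binds DNA as a dimer, and Jun proteins can also pair with each other. Growth factors that act through ERK phosphorylate Elk1, an ETS factor which sits with SRF on the promoters of Egr1 and Fos, and Med23 is the Mediator subunit that phosphorylated Elk1 contacts. Elk1 is therefore an upstream factor and not itself an immediate early gene. In the oligodendrocyte lineage, PDGF acts on OPCs partly through ERK.

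Levels are in FPKM, fragments scaled by transcript length and by library size, as made by cuffdiff. Read counts were not used, so depth is unknown. Judged by the spacing of low values, a single read counted for 0.744 to 1 times as much FPKM as in Med23+/+ replicate 1, and the genotypes overlapped in this. Differences were tested with limma on log2(FPKM + 1) over the 12328 genes that averaged 1 FPKM or more, and a gene was called at a Benjamini-Hochberg adjusted p under 0.05. Fold changes on this scale are understated for weakly expressed genes. The labels do not say whether the 4 libraries of a genotype came from separate animals or cultures, so p-values measure the spread between these libraries only.

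Med23 itself, spanning 29 exons in its principal transcript (chromosome 10, 24869986 to 24913681, mm10), measured 12.7, 12.2, 12.6 and 12.6 FPKM across Med23+/+ replicates 1 to 4, against 8.40, 7.93, 8.49 and 8.21 FPKM across Med23-/- replicates 1 to 4. The libraries labelled Med23-/- were all lower (log2 difference -0.55 ± 0.07, standard error; limma adjusted p = 0.000353; two-sided exact permutation test, p = 0.0286, the smallest that 4 against 4 allows). Whether the remaining Med23 reads held the floxed part cannot be read from gene-level values.

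Of the 10 genes, 8 reached a mean of 1 FPKM and were tested. Jun, Fos and Jund were higher in Med23-/- iOLs and Elk1 was lower. Egr1, Nr4a1, Ier2 and Junb were not called. These 4 calls among 8 genes stand beside 30% of all genes tested, made up of 15.9% called higher and 14.1% called lower, and with so few genes nothing particular is read from the count. With a fold change of FPKM + 1 above 2 added, Jun and Fos remained, beside 4.73% of all genes tested (2.98% higher and 1.75% lower). The study also used a fold change above 2, but on cuffdiff expression levels. The limit here is stricter for weakly expressed genes, so the 2 are not the same. The median log2 fold change of the 8 genes was 0.45, and that of all genes tested was -0.01.

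Promoter sequence is shown for Fos and Jun, which had the largest increases, and for Elk1, which was lower. Each line holds the 250 bases before the RefSeq start, 5′ to 3′ on the coding strand (GRCm38.p6, the build of mm10). They lie at chr12:85473640-85473889 on the plus strand for Fos, at chr4:95052223-95052472 on the minus strand for Jun and at chrX:20950609-20950858 on the minus strand for Elk1. Capitals mark TGACG (the core of a CRE), GGGCGG (a GC box, which reads CCGCCC when it lies on the other strand) and TATAAA in Fos, TGACATCA (the AP-1 variant), CCAAT and the GC box in Jun, and CCAAT and the GC box in Elk1.
Fos: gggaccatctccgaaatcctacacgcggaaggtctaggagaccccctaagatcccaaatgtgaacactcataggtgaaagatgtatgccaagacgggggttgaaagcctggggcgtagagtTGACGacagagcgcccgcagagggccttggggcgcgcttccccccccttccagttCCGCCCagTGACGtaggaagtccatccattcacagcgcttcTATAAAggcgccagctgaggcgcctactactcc
Jun: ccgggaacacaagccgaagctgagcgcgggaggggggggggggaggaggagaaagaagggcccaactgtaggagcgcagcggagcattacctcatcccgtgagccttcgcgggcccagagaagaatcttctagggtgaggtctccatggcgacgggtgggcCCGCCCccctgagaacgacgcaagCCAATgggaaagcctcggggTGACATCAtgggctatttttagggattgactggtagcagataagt
Elk1: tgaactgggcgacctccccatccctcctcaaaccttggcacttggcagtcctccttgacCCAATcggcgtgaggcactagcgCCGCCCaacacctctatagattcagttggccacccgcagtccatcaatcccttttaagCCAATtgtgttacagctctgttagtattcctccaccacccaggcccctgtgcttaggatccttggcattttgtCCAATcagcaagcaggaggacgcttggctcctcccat

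In Fos the TGACG matches began 129 and 66 bases before the start and TATAAA began 33 bases before it. In Jun the TGACATCA match began 45 bases before the start, next to CCAAT at 65 bases. Searched on both strands of all 32851 RefSeq promoter windows, TGACATCA was found in 2.93%, TGACG in 17.8%, TATAAA in 12.4%, CCAAT in 33.8% and GGGCGG in 32.7%. Also searched were the CArG box (CCWWWWWWGG, W being A or T), TGANTCA, the Egr site GCGTGGGCG and the Ets core CCGGAA. These had 0 matches in the Fos, Jun and Elk1 windows, beside 1.47%, 6.75%, 0.536% and 12% of all windows. Sites more than 250 bases before the start were not searched. The Nr4a1 window, of a gene that was not called, held 4 matches of TGACG. Windows of 8 of the 10 genes were used here, without Egr1 and Ier2, and a match of letters is a description and not a bound site.

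Jun (chromosome 4, 95049034 to 95052222, a single exon) encodes the main partner of Fos in AP-1. It measured 13.4, 11.8, 10.2 and 13.9 FPKM across Med23+/+ replicates 1 to 4, against 49.1, 45.9, 42.6 and 54.8 FPKM across Med23-/- replicates 1 to 4. The groups were far apart, since the lowest Med23-/- library lay above the highest Med23+/+ library by more than the spread within either. The means were 12.3 ± 1.70 and 48.1 ± 5.20 FPKM (SD, n = 4 each), 3.90 times as much in Med23-/- iOLs. On the log2 scale the difference was 1.88 with a standard error of 0.11 (limma adjusted p = 1.86e-05). Of the 12328 genes tested, 26 had a larger log2 fold change. Jun overlaps the antisense gene Junos on the opposite strand, and no use of strand in the counting was stated.

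**Figure D1:**
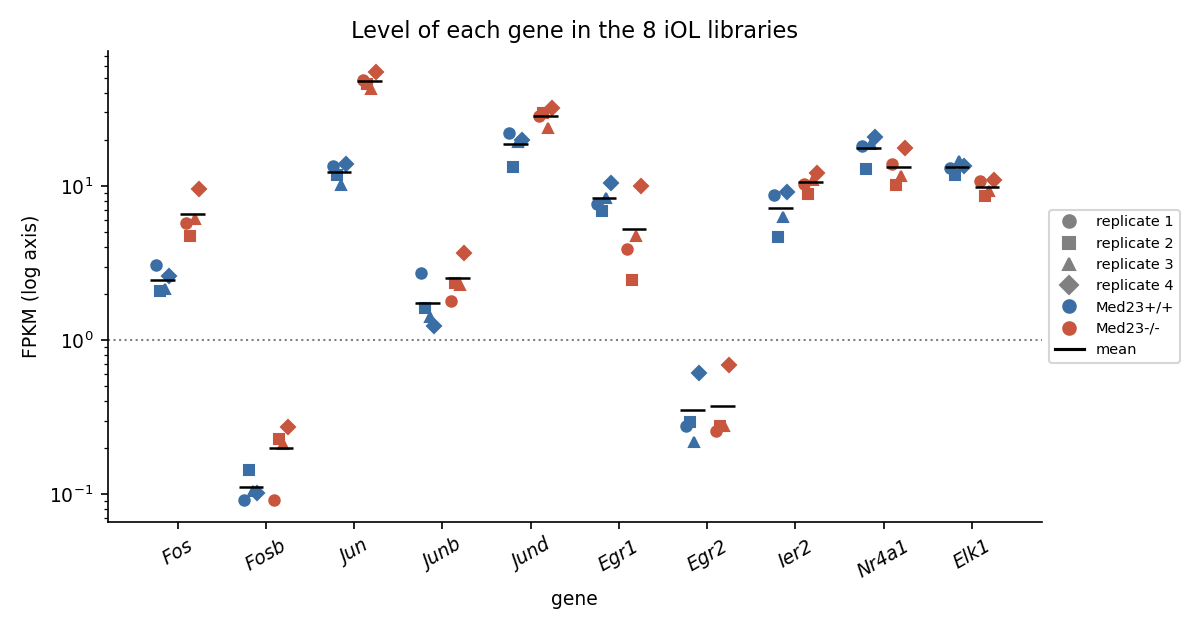
FPKM (log axis) of the 10 genes in each of the 8 libraries, with marker shape for the replicate number, blue for Med23+/+, red for Med23-/-, and a black bar for the mean of 4 libraries; the dotted line is 1 FPKM. The Med23-/- libraries of Jun (42.6 to 54.8 FPKM) lie clear of its Med23+/+ libraries (10.2 to 13.9 FPKM), while Fosb and Egr2 stay under 1 FPKM in all libraries.

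Jund (chromosome 8, 70698949 to 70700616, a single exon) encodes the Jun protein that is usually present without a stimulus. Its Med23+/+ libraries had 21.9, 13.3, 19.3 and 19.8 FPKM and its Med23-/- libraries 28.3, 29.8, 23.9 and 32.0 FPKM. The genotypes did not overlap, although Med23+/+ replicate 2 lay well below the others of its group. The means were 18.6 ± 3.68 and 28.5 ± 3.45 FPKM (SD, n = 4 each), and the log2 difference was 0.60 ± 0.15 (standard error, limma adjusted p = 0.0129). Jund overlaps the antisense gene Gm11175.

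Junb (chromosome 8, 84974484 to 84978718) encodes a Jun protein with weaker activation than Jun at many AP-1 sites. It measured 2.72, 1.62, 1.41 and 1.23 FPKM across Med23+/+ replicates 1 to 4, against 1.80, 2.34, 2.29 and 3.65 FPKM across Med23-/- replicates 1 to 4. The genotypes overlapped, because Med23+/+ replicate 1 exceeded 3 of the 4 Med23-/- libraries, and Junb was not called (log2 fold change 0.36, 95% interval -0.08 to 0.81, limma adjusted p = 0.199). Part of its annotated span is shared with Prdx2 on the opposite strand.

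The makeup of the Jun family therefore differed between the libraries of the genotypes. Jun made up 32.9% to 44.1% of the summed FPKM of Jun, Jund and Junb in the Med23+/+ libraries and 58.8% to 62.0% in the Med23-/- libraries. Jund was the most abundant of the 3 in every Med23+/+ library, at 49.9% to 62.5%, and held 34.7% to 38.2% in the Med23-/- libraries. The summed level was 26.8 to 38 FPKM in Med23+/+ and 68.7 to 90.5 FPKM in Med23-/- libraries. These shares rest on the same values as the tests above and are a description.

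**Figure D2:**
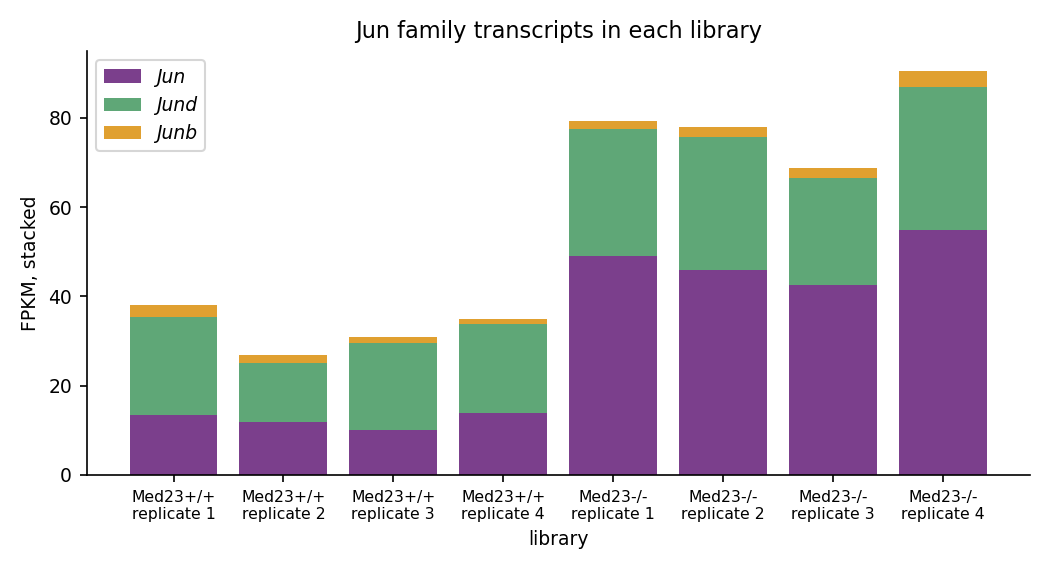
Stacked FPKM of Jun, Jund and Junb in each library (bars start at 0). Jund is the larger part in the 4 Med23+/+ libraries and Jun in the 4 Med23-/- libraries.

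Fos (chromosome 12, 85473890 to 85477273, 4 exons) encodes the AP-1 subunit that needs a Jun partner to bind DNA. It measured 3.05, 2.09, 2.13 and 2.59 FPKM across Med23+/+ replicates 1 to 4, against 5.75, 4.71, 6.12 and 9.59 FPKM across Med23-/- replicates 1 to 4. All Med23-/- libraries were above all Med23+/+ libraries, and Med23-/- replicate 4 was the highest by a wide margin. Means were 2.46 ± 0.453 and 6.54 ± 2.12 FPKM (SD, n = 4 each), and Fos rose by 1.09 ± 0.18 on the log2 scale (standard error, limma adjusted p = 0.00193). Without Med23-/- replicate 4 the difference was 0.92 (limma adjusted p = 0.00153), and under quantile normalization 0.96 (adjusted p = 0.00362). With library weights it was 0.97 (adjusted p = 0.00121). All 3 values were short of a fold of 2 on the scale of FPKM + 1, which understates changes at such low levels. With a pseudocount of 0.1 and all libraries the log2 difference was 1.34 (limma adjusted p = 0.00145). The mean FPKM was 2.65 times as high in Med23-/- iOLs. With all libraries, 290 of the genes tested had a larger log2 fold change than Fos.

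Fosb (chromosome 7, 19302696 to 19310051), which encodes Fosb and a truncated form that gene-level values cannot separate, was too low to be tested. Across replicates 1 to 4, Med23+/+ libraries gave 0.0912, 0.144, 0.104 and 0.102 FPKM and Med23-/- libraries 0.0908, 0.226, 0.212 and 0.271 FPKM. Replicate 1 of the Med23-/- group was the lowest of all 8 libraries and the other 3 were the highest.

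Of the Fos family in the widest sense, Fosl2 was the other member at 1 FPKM or more on average, and it was not called (log2 fold change 0.43, limma adjusted p = 0.158). Fos made up 64.9% to 71.5% of the summed FPKM of Fos, Fosb, Fosl1 and Fosl2 in Med23+/+ and 68.1% to 78.6% in Med23-/- libraries, with ranges that overlap. Jun exceeded Fos by a factor of 4.39 to 5.65 in Med23+/+ and of 5.72 to 9.74 in Med23-/- libraries.

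Egr1 (chromosome 18, 34859823 to 34864984, 2 exons) encodes a zinc finger factor and is the gene at which the Elk1 and Med23 contact is best known. Med23+/+ replicates 1 to 4 gave 7.61, 6.85, 8.31 and 10.5 FPKM. Med23-/- replicates 1 to 4 gave 3.89, 2.47, 4.75 and 10.1 FPKM. Replicates 1, 2 and 3 of the Med23-/- group lay below every Med23+/+ library, and replicate 4 lay above 3 of the 4. The means were 8.30 ± 1.55 and 5.29 ± 3.31 FPKM (SD, n = 4 each), and Egr1 was not called (log2 fold change -0.69, standard error 0.30, 95% interval -1.35 to -0.02, unadjusted p = 0.0448, limma adjusted p = 0.112).

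Leaving out that library changed the call of Egr1. Without Med23-/- replicate 4 the log2 fold change was -1 (limma adjusted p = 0.0046), whereas the other 7 fits that left out a library did not call it. With libraries weighted by their agreement with the fit the adjusted p was 0.0163. Egr1 and Fos, both held to be targets of Elk1 with SRF, thus had different values across the libraries: the ratio of Fos to Egr1 was 0.248 to 0.401 in the Med23+/+ libraries and 0.954 to 1.91 in the Med23-/- libraries. This ratio is a description of the same values.

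**Figure D3:**
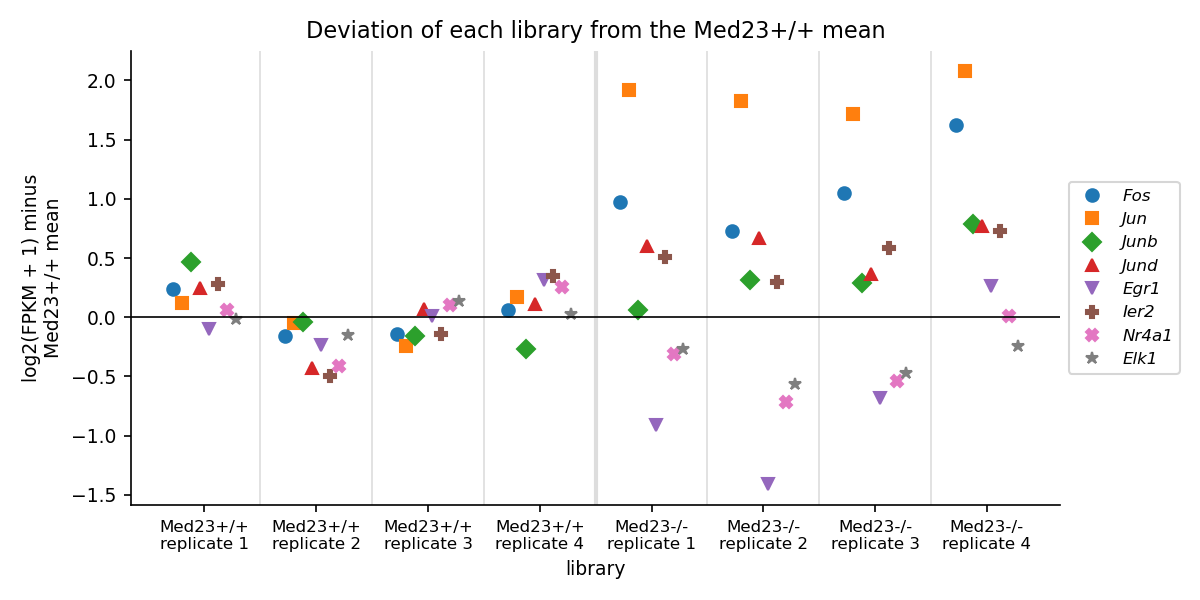
Log2(FPKM + 1) of the 8 tested genes in each library, minus the mean of the 4 Med23+/+ libraries (line at 0); each marker is a gene. Egr1 lies at -0.91, -1.41 and -0.68 in Med23-/- replicates 1 to 3 and at 0.26 in replicate 4, while Jun lies between 1.72 and 2.08 in all 4.

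Med23-/- replicate 4 was the highest Med23-/- library for all 10 genes, where 33.5% of all genes tested had their highest Med23-/- value in it. It also had the lowest summed level of 8 markers of immature oligodendrocytes, 507 FPKM against 792 to 1065 FPKM in the other Med23-/- libraries and 2009 to 2273 FPKM in Med23+/+ libraries. In the Med23+/+ group, replicate 4 was highest for 5 of the 10 genes (19.7% of all genes tested) and replicate 2 lowest for 6 (33.8%). The part of either in the results was not tested.

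Egr2 (chromosome 10, 67535475 to 67542188), best known as the master factor of myelination in Schwann cells, measured 0.276, 0.295, 0.218 and 0.614 FPKM across Med23+/+ replicates 1 to 4, against 0.255, 0.278, 0.277 and 0.692 FPKM across Med23-/- replicates 1 to 4. It was under 1 FPKM in all libraries and was not tested. Replicate 4 was the highest of both groups.

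Nr4a1 (chromosome 15, 101254269 to 101274795, 7 exons) encodes an orphan nuclear receptor induced by growth factors. It measured 18.2, 12.8, 18.8 and 20.9 FPKM across Med23+/+ replicates 1 to 4, against 13.8, 10.2, 11.7 and 17.6 FPKM across Med23-/- replicates 1 to 4. Replicate 2 was the lowest and replicate 4 the highest of each group, and the groups overlapped. Nr4a1 was not called (log2 fold change -0.39, 95% interval -0.79 to 0.01, limma adjusted p = 0.129). Without Med23+/+ replicate 2 the log2 fold change was -0.53 (limma adjusted p = 0.0433), and without Med23-/- replicate 4 it was -0.52 (limma adjusted p = 0.0395). Of the 8 fits that left out a library, only these 2 called Nr4a1, and the adjusted p in the rest rose to 0.283.

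Ier2 (chromosome 8, 84661331 to 84662852, a single exon) encodes a small nuclear protein of the early response. It measured 8.72, 4.67, 6.25 and 9.15 FPKM across Med23+/+ replicates 1 to 4, against 10.3, 8.82, 10.9 and 12.2 FPKM across Med23-/- replicates 1 to 4. In the Med23-/- group 3 libraries were above every Med23+/+ library, and replicate 2 lay among the higher Med23+/+ values. Ier2 was just short of a call (log2 fold change 0.53, 95% interval 0.12 to 0.93, limma adjusted p = 0.0521). The adjusted p was 0.0477 under median-ratio scaling, 0.0398 without Med23+/+ replicate 1, 0.0325 without Med23+/+ replicate 4 and 0.0478 without Med23-/- replicate 2. Of the 8 fits that left out a library, only these 3 called Ier2, and the adjusted p in the rest rose to 0.121. With library weights the log2 fold change was 0.37 (limma adjusted p = 0.14).

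Elk1 (chromosome X, 20933395 to 20950608, 6 exons) measured 13.0, 11.8, 14.6 and 13.5 FPKM across Med23+/+ replicates 1 to 4, against 10.8, 8.57, 9.22 and 11.0 FPKM across Med23-/- replicates 1 to 4. All Med23-/- libraries were below all Med23+/+ libraries, by a small margin. Means were 13.2 ± 1.17 and 9.88 ± 1.17 FPKM (SD, n = 4 each), with a log2 difference of -0.39 ± 0.10 (standard error, limma adjusted p = 0.0165). Of all genes tested, 10.7% had a lower log2 fold change. Elk1 shares part of its span with Uxt on the same strand.

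**Figure D4:**
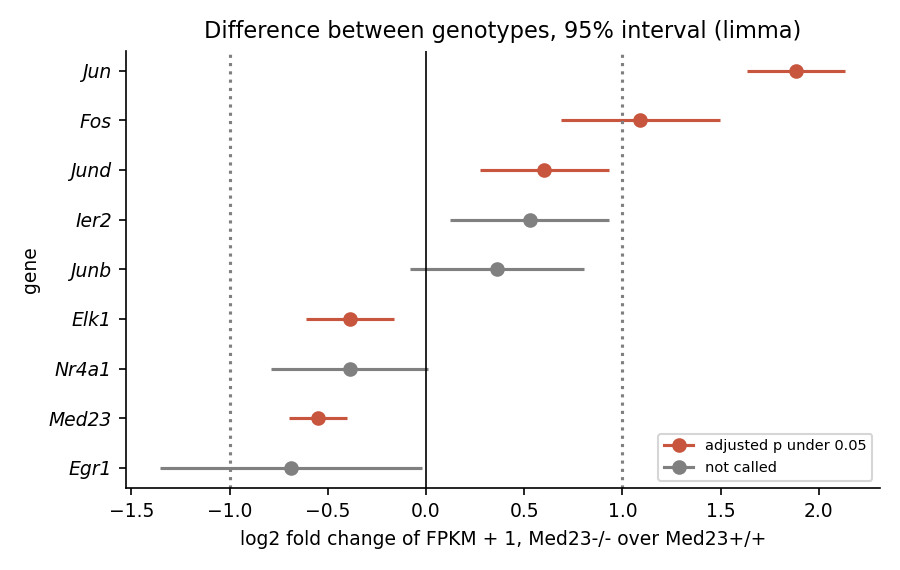
Log2 fold change of FPKM + 1, Med23-/- over Med23+/+, for the 8 tested genes and Med23, with the 95% interval of the limma fit (4 libraries against 4, not adjusted for the number of genes); red marks an adjusted p under 0.05 and dotted lines a fold change of 2. Jun and Fos lie beyond a fold of 2, and the interval of Egr1 is the widest.

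Between Med23-/- and Med23+/+ libraries, 4 of the 8 tested genes did not overlap: Jun, Fos and Jund, which were higher, and Elk1, which was lower. Of all genes tested, 16.3% lay higher and 15.3% lower without overlap, 31.6% together. The order of levels also differed between the groups. In Med23+/+ iOLs Jund and Nr4a1 led at 18.6 and 17.7 FPKM, followed by Elk1, Jun, Egr1 and Ier2, each of which overlapped the gene before it. Fos and Junb came next, clear of Ier2 but not of each other. In Med23-/- iOLs Jun came first and Jund second, clear of each other and of Nr4a1 at 13.3 FPKM, below which Ier2, Elk1, Fos, Egr1 and Junb each overlapped the gene before it. Egr2 and Fosb were lowest in both groups.

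The further genes of the pathway were taken by list. Among 14 other AP-1 family genes, 8 were tested, 1 was higher and 2 were lower, where 15.9% and 14.1% of all genes tested were called in these directions. Jdp2, an AP-1 repressor, rose by 0.49 on the log2 scale (limma adjusted p = 0.0426), and Atf7 and the small Maf gene Mafk fell, with log2 fold changes of -0.44 (adjusted p = 0.0143) and -0.37 (adjusted p = 0.0233). Of the 8 fits that left out a library, 2 called Jdp2, 4 called Mafk and 8 called Atf7. The stress-induced Atf3 and Fosl1 were under 1 FPKM in all libraries. Of the other Egr genes, Egr3 and Egr4 were too low to be tested, and the Egr corepressor genes Nab1 and Nab2 were not called by limma, with log2 fold changes of -0.19 and 0.14 and 0 of them at an unadjusted p under 0.05.

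The relatives of Nr4a1 and Ier2 rose or were not called: 3 of 5 were higher and 0 lower, beside 15.9% and 14.1% of all genes tested. Ier5 rose from 3.32 ± 1.14 to 7.90 ± 0.612 FPKM, with SD over 4 libraries each (log2 fold change 1.08, limma adjusted p = 0.00133). Nr4a2, a close relative of Nr4a1, rose from 0.973 ± 0.0719 to 2.05 ± 0.236 FPKM (log2 fold change 0.63, adjusted p = 0.00261), and Ier3 had a log2 fold change of 0.55 (adjusted p = 0.0432). The Med23+/+ mean of Nr4a2 was under 1 FPKM, so that gene was tested only through its Med23-/- values. The genotypes overlapped for Ier3, which was called in 1 of the 8 fits that left out a library. Nr4a3 had a log2 fold change of 0.25 and was not called (adjusted p = 0.193).

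In a list of 32 further immediate early genes, 25 were tested, 9 were higher (36.0%, beside 15.9% of all genes tested) and 2 were lower (8%, beside 14.1%), with a median log2 fold change of 0.26. The largest increases were in Btg2, an antiproliferative gene (log2 fold change 2.12, limma adjusted p = 4.20e-05), Zfp36l1, whose protein promotes decay of AU-rich mRNAs (1.82, adjusted p = 0.000183), and the polo-like kinase gene Plk2 (1.28, adjusted p = 0.000597). The serum and glucocorticoid kinase gene Sgk1 fell from 125 ± 4.37 to 54.2 ± 16.6 FPKM (log2 fold change -1.25, adjusted p = 0.0015). Myc, also an early response gene, fell from 107 ± 3.45 to 55.8 ± 8.59 FPKM (log2 fold change -0.94, adjusted p = 0.000309). The early genes thus did not share a direction in these libraries.

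**Figure D5:**
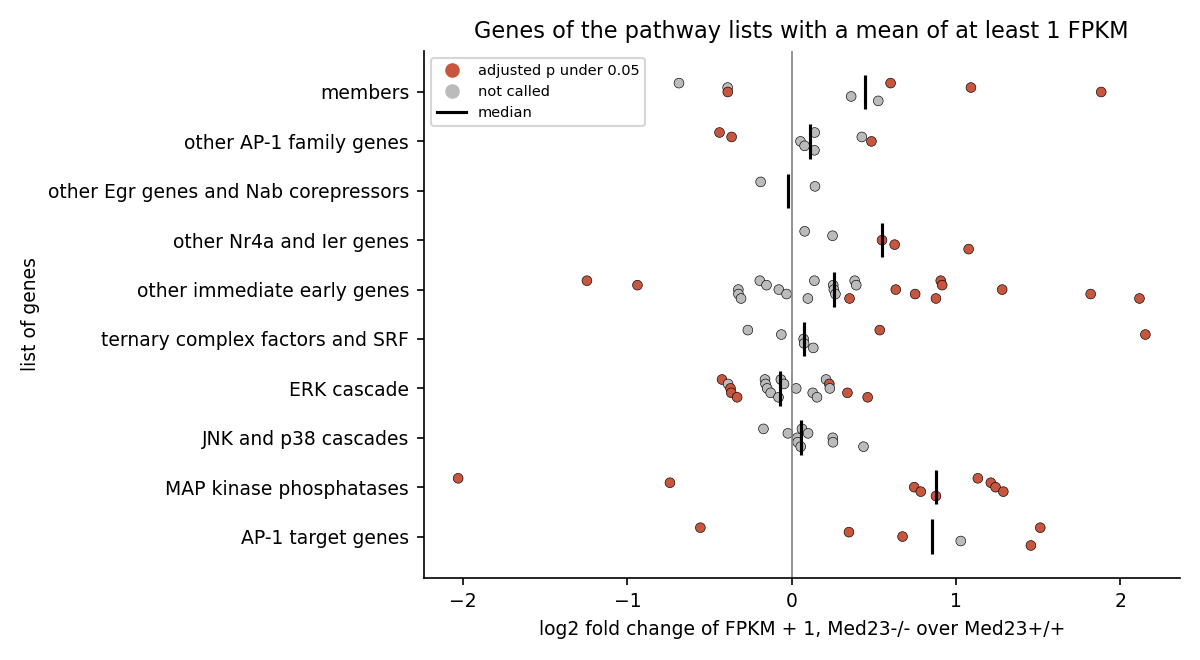
Log2 fold change of FPKM + 1, Med23-/- over Med23+/+, of each tested gene in the lists (points, red at adjusted p under 0.05), with the median of each list as a black bar. MAP kinase phosphatases hold no uncalled gene and lie to both sides, from -2.03 for Dusp9 to 1.29 for Dusp10, while no gene of the JNK and p38 cascades was called. Of all genes tested, 30% were called.

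The factors next to Elk1 were read in the same way. All 7 genes listed for SRF, its partners and the Ets factors were tested. Of these, 2 were higher (28.6%) and 0 lower, beside 15.9% and 14.1% of all genes tested. Ets1 rose from 3.49 ± 0.616 to 19.1 ± 3.55 FPKM (log2 fold change 2.15, limma adjusted p = 2.26e-05), and Elk3, a relative of Elk1 that can repress, rose from 2.25 ± 0.261 to 3.73 ± 0.628 FPKM (log2 fold change 0.54, adjusted p = 0.00885). Srf had 12 ± 1.16 and 9.88 ± 1.53 FPKM and was not called (log2 fold change -0.27, adjusted p = 0.118).

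Transcripts of the ERK cascade differed little in size. Of 20 genes, 3 were higher (15%) and 4 lower (20%), beside 15.9% and 14.1% of all genes tested. None passed a fold of 2, and the median log2 fold change was -0.07. Rps6ka4, a kinase downstream of ERK and p38, was highest in the list at 0.46 (limma adjusted p = 0.00855), followed by the scaffold gene Ksr1 at 0.34 (adjusted p = 0.0404) and Rps6ka5 at 0.23 (adjusted p = 0.0495). Of the 8 fits that left out a library, 2 called Ksr1, 1 called Rps6ka5 and 8 called Rps6ka4. Araf, Nras and Sos2 fell, with log2 fold changes of -0.42 (adjusted p = 0.00406), -0.37 (adjusted p = 0.00545) and -0.37 (adjusted p = 0.00571). In the JNK and p38 cascades 0 of 10 tested genes were called by limma, beside 30% of all genes tested. Mapk8, Mapk10 and Map2k3 had an unadjusted p under 0.05. Log2 fold changes ran from -0.17 for Mapk9 to 0.44 for Mapk10.

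The MAP kinase phosphatases, which switch ERK, JNK and p38 off and of which several are themselves induced by ERK had the highest share called of the 9 pathway lists. All 9 tested genes were called, 7 higher (77.8%) and 2 lower (22.2%), against 15.9% and 14.1% of all genes tested. Dusp10 rose from 3.29 ± 0.281 to 9.51 ± 1.26 FPKM (log2 fold change 1.29, limma adjusted p = 4.55e-05), Dusp4 had a log2 fold change of 1.24 (adjusted p = 0.012) and Dusp5 of 1.21 (adjusted p = 0.00452). Dusp4 spread widely in Med23+/+ libraries (7.44 ± 4.81 FPKM). Its Med23+/+ replicate 1, at 14.5 FPKM, lay just below the lowest Med23-/- library at 14.9 FPKM. Dusp9 fell from 4.76 ± 0.286 to 0.419 ± 0.181 FPKM (log2 fold change -2.03, adjusted p = 1.86e-05), and Dusp7 had a log2 fold change of -0.74 (adjusted p = 0.000527). Dusp9 and Dusp7 encode phosphatases of the cytoplasm with a preference for ERK, and so does Dusp6, which rose from 14.6 ± 2.43 to 33.8 ± 9.36 FPKM (log2 fold change 1.13, adjusted p = 0.0015).

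Of 15 genes that textbooks give as AP-1 targets, 6 averaged at least 1 FPKM, of which 4 were higher and 1 lower, where 15.9% and 14.1% of all genes tested were called. Vim, encoding vimentin, rose from 64.9 ± 13.3 to 195 ± 78.6 FPKM (log2 fold change 1.51, limma adjusted p = 0.00163), Ccnd1 (cyclin D1) had a log2 fold change of 1.46 (adjusted p = 0.000679) and Hmox1 of 0.68 (adjusted p = 0.00614). Gclc, for an enzyme of glutathione synthesis, fell (log2 fold change -0.56, adjusted p = 0.000742). The matrix metalloproteinase genes Mmp3, Mmp9 and Mmp13 were at or under 0.1 FPKM in all libraries.

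Markers of other cell types that a CD140a selection could carry were set beside these results. The 6 OPC markers were expressed in all libraries, with Pdgfra and Cspg4 higher in Med23-/- iOLs (log2 fold changes 1.47 and 1.39, limma adjusted p = 2.33e-05 and 0.000141) and Sox10 lower (-0.49, adjusted p = 0.0203). Ptprz1, Olig1 and Olig2 were not called (adjusted p = 0.344, 0.951 and 0.0621). Of all genes tested, 15.9% were called higher and 14.1% lower. All 8 immature oligodendrocyte markers were called lower in Med23-/- iOLs, beside 14.1% of all genes tested. Microglial markers summed to 1.49 to 2.91 FPKM in Med23+/+ and 1.89 to 3.41 FPKM in Med23-/- libraries, and 5 of 6 endothelial markers were under 1 FPKM in all libraries. Kdr was the exception and was called higher in Med23-/- iOLs (log2 fold change 0.77, limma adjusted p = 0.0398). It averaged 0.505 FPKM in Med23+/+ and 1.65 FPKM in Med23-/- libraries, so it was tested only through its Med23-/- values. The genotypes overlapped for Kdr. Of the 6 fits that left out a library and tested Kdr, 3 called it. Markers of pericytes and fibroblasts summed to 1.13 to 10.8 FPKM in Med23+/+ and 3.05 to 17.1 FPKM in Med23-/- libraries, and of the 2 that were tested 0 were called by limma and 0 had an unadjusted p under 0.05. Of 6 Schwann cell markers 3 were tested, with 2 called higher and 1 lower, beside 15.9% and 14.1% of all genes tested. Neuronal markers summed to 186 to 205 FPKM in Med23+/+ and 256 to 313 FPKM in Med23-/- libraries. Map2, which changed least of them (log2 fold change 0.32, limma adjusted p = 0.0179), held 149 to 178 and 192 to 220 FPKM of these sums. Of the 6 neuronal markers 5 were called higher, beside 15.9% of all genes tested. Among them were Snap25 (log2 fold change 1.31, limma adjusted p = 0.00103) and Rbfox3 (1.05, adjusted p = 0.00508). Of the 6 astrocyte markers, 1 was called higher (16.7%) and 2 lower (33.3%), beside 15.9% and 14.1% of all genes tested, and 3 were not called. Gfap fell from 13.6 ± 11.1 to 3.12 ± 2.26 FPKM, with SD over 4 libraries each (log2 fold change -1.705, limma adjusted p = 0.0222). Aqp4 had a log2 fold change of -1.29 (adjusted p = 0.012) and Slc1a2 of 0.67 (adjusted p = 0.0222). The part of neuronal, astrocyte or oligodendrocyte transcripts in the values of Jun and Fos was not tested, and in bulk RNA fewer cells of a type and less RNA per cell cannot be told apart.

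By the root mean square difference of centred log2(FPKM + 1) over the 8 libraries, the profiles nearest to that of Fos were Cdh4 (0.097), Cdc42ep1 (0.102) and Olfml3 (0.104), all called higher. Those nearest to Egr1 were Rpl34 (0.196), Bola3 (0.21) and Mif (0.227), of which none was called. Rpl34, which encodes a ribosomal protein, had 163, 87.7, 159 and 350 FPKM in the Med23-/- libraries, highest in replicate 4 and lowest in replicate 2, as for Egr1. These genes were picked for likeness over the same 8 libraries. Their direction, calls and order of libraries therefore follow largely from the choice and are a description only.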

How the data were processed

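RNA was measured in 4 Med23+/+ and 4 Med23-/- iOL libraries. Reads from an Illumina X-10 were passed by the authors through FastQC, Cutadapt and Tophat2 (mm10), and cuffdiff (-b, -u) gave the deposited FPKM of each library. Tool versions, annotation and library normalization are not given in the sources used here. The deposited columns of pooled values, fold changes, p-values and q-values were not used. No library column was left out.

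Values were taken as log2(FPKM + 1), genes averaging 1 FPKM or more (12328 of 24346) were fitted with limma 3.58.1 in R 4.3.3 (eBayes with a mean-variance trend), and p-values were adjusted by Benjamini-Hochberg over all of them. Depth is unknown, so no counting interval is given. On simulated data for this comparison with 12328 genes, 87 of 100 genes changed by 1 on the log2 scale and 99 of 100 changed by 2 were called, with 9 other genes called. There, 200 genes were changed and values varied independently, without an effect shared by a library. In the real data 30% of genes were called. Changes smaller than 1, such as those of Jund and Elk1, were not simulated. For Med23 an exact two-sided permutation of the libraries was added. Coordinates are from GENCODE vM21 (mm10) and promoters from RefSeq (GRCm38.p6). Ccn1, Ccn2, Mrtfa and Mrtfb stand in the table under older symbols.

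The genes and lists were chosen with earlier results of these data known. Named from each list were up to 3 called genes with the largest change in each direction, or the extremes where none was called, and for Egr1 and Fos the 3 nearest profiles. Fosl1, Fosl2, Atf3, Egr3, Egr4, Nr4a3, Srf, Mapk8, Map2k3, Dusp6, Kdr, Snap25, Rbfox3, Map2, Gfap, Aqp4, Slc1a2, Cspg4, Sox10, Ptprz1, Olig1, Olig2 and the Mmp genes were named after their values were seen. Alternatives were a pseudocount of 0.1, no filter beyond a value above 0, a mean of at least 5 FPKM, quantile and median-ratio scaling, no trend, library weights, the replicate block, a fold change above 2, and leaving out each library. Software was Python 3.11.15 with pandas 2.3.3, numpy 2.4.6, matplotlib 3.10.9 and scipy 1.17.1.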

Additional observations from a re-analysis of the deposited data

Results flagged for a closer look

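Egr2 in the Med23-/- group had 1 library far from the others, replicate 4 at 0.692 FPKM against 0.255 to 0.278 FPKM in the other 3. Of 22 groups of 4 libraries looked at in this way (the 10 genes and Med23 in each genotype), this was the only one, and chance gives about 1 in 20. Med23+/+ replicate 4 was at 0.614 FPKM, and all these values lie under the level at which genes were tested.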

How the results depend on the processing

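Every one of the 134 values of the 8 tested genes under the alternatives kept its direction, and 120 also kept their side of the threshold. Fos, Jun, Jund and Elk1 had a limma adjusted p under 0.05 in every fit that tested them (Fos and Junb were not tested at a mean of at least 5 FPKM), with the highest at 0.0489 for Elk1 without Med23+/+ replicate 3. The exceptions were the fits named above that called Egr1, Nr4a1 or Ier2, the weighted fit, which called Nr4a1 (adjusted p = 0.0332), the replicate block, and the fold change limit, under which Jund and Elk1 were lost. Requiring a fold change above 2 left 2 of the 8 tested genes in place of 4, 13 genes of the pathway lists in place of 39, and 367 higher and 216 lower genes among all tested, in place of 1957 and 1738. A mean of at least 5 FPKM left 1281 higher genes, since fewer genes were tested.

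With each library left out in turn, 4 to 6 of the 8 genes and 34 to 39 genes of the lists were called, with 1556 to 1864 higher and 1225 to 1667 lower genes among all tested, and Med23 stayed between -0.56 and -0.53. Over all genes tested, deviations of same-numbered libraries correlated weakly (0.13, -0.10, -0.03 and 0.16 for replicates 1 to 4). Not every library correlated best with its own number. Among the 10 genes, replicate 2 was lowest in both groups for Fos, Egr1, Ier2, Nr4a1 and Elk1. Replicate 4 was highest in both for Jun, Egr1, Egr2, Ier2 and Nr4a1. The labels do not say whether the numbers pair the samples, and weak correlations cannot decide it. With the replicate block 7 genes were called in place of 4, the added ones being Egr1 (adjusted p = 0.0257), Nr4a1 (0.0175) and Ier2 (0.0152). The cause was not tested.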
